A study of Mus musculus with 12 samples.

Results

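Messenger RNA of 8 complement genes was followed in cultured mouse macrophages grown out of bone marrow (BMDMs). The genes were those whose Ensembl identifiers map to the symbols C1qa, C1qb, C1qc, C3, Cfb, Cfp, C3ar1 and C5ar1, 8 of the 54532 genes in the count table and 8 of the 15338 that passed a filter on low counts. Cells carried the R150X allele of Gpnmb, a premature stop codon, or were WT controls, and they were given oxidised low-density lipoprotein (OxLDL) or left untreated. Each of the 4 groups, R150X with OxLDL, WT with OxLDL, untreated R150X and untreated WT, had 3 libraries. The strain of every group was given as a DBA/2 by C57BL/6 cross backcrossed to C57BL/6. The age and sex of the mice, the OxLDL dose and duration, the batch and the source of a group's 3 libraries (mouse, culture or pool) were not given in the labels. The p-values below therefore measure the spread between libraries, which may be technical.

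Complement is a cascade of proteins that marks particles for uptake and attracts leukocytes. C1q, assembled from the products of C1qa, C1qb and C1qc, binds immune complexes and dying cells and starts the classical pathway. All pathways meet at C3, whose cleavage gives the opsonin C3b and the anaphylatoxin C3a. Factor B (Cfb) and properdin (Cfp) form and stabilise the alternative pathway convertase, which amplifies C3 cleavage. C3ar1 and C5ar1 encode the receptors for C3a and C5a. Most complement proteins in blood come from the liver, while macrophages are a main source of C1q and properdin. Foam cells are macrophages loaded with lipid from modified lipoprotein.

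The promoters of 4 genes are shown because C1qb and C1qc moved together, C3 fell deeply with OxLDL, and C5ar1 differed most between untreated genotypes. Each sequence runs 5′ to 3′ from 250 bases before to 50 bases after the RefSeq start and lies on the minus strand of GRCm38.p6, at chr4:136886151-136886450 for C1qb, chr4:136892865-136893164 for C1qc, chr17:57228087-57228386 for C3 and chr7:16259289-16259588 for C5ar1. Capitals mark matches to the motifs named after the sequences.
C1qb: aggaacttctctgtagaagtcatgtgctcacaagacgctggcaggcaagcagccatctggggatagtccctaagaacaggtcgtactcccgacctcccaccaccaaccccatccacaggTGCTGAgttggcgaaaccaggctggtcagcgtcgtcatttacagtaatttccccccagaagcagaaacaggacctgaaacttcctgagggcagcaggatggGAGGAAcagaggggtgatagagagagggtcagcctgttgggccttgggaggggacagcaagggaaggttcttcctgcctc
C1qc: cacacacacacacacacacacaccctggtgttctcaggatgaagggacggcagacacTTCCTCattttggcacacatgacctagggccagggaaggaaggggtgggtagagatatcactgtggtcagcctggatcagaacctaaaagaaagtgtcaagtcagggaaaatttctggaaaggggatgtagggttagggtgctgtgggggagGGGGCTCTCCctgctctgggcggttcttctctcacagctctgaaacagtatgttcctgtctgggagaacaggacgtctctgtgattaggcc
C3: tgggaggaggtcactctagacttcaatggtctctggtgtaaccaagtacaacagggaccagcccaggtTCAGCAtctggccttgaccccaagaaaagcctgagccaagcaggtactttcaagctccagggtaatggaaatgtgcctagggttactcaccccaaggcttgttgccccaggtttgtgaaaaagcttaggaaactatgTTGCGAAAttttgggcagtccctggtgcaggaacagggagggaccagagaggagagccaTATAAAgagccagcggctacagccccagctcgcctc
C5ar1: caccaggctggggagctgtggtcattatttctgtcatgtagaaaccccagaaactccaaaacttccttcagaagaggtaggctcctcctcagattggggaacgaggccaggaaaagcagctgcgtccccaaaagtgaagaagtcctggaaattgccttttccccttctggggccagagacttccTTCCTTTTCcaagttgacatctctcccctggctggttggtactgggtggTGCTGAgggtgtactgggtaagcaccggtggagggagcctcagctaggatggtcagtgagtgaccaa

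The capitals in C1qb are a Maf half-site, TGCTGA, at position -131 from the start and a PU.1 core, GAGGAA, at -30. Those in C1qc are the PU.1 core on the opposite strand at -193 and an NF-kB match at -41. In C3 they are a Maf half-site on the opposite strand at -182, a C/EBP match to TTGCNNAA at -45 and TATAAA at 15, downstream of the start that RefSeq gives. In C5ar1 they are an IRF match to GAAANNGAA on the opposite strand at -66 and a Maf half-site at -17. Both strands were searched, and no marked match overlapped another in these 4 sequences. Of 32817 promoters of the same length, 28.3% held the PU.1 core, 19.5% the Maf half-site, 10.8% the C/EBP motif, 8.55% the IRF motif, 13.6% TATAAA and 4.5% the NF-kB motif. Promoters were listed for 6 of the 8 genes, and of these 3 held the PU.1 core and 4 the Maf half-site. A match describes the letters and is not evidence of binding.

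The libraries held 14838969 to 18222868 counts each, and a floor of 3 counts stood at 0.158 to 0.209 CPM, the unit that scales counts to one library total (here with TMM factors, a trimmed mean of ratios between libraries). Between replicates of a group, the chi-square of the counts per degree of freedom was 2.31 to 4.76, but 9.23 and 10.1 for replicate 1 of untreated R150X against replicates 2 and 3. Gpnmb separated the genotypes in every library, with 363 to 411 CPM in untreated R150X cells against 5305 to 5374 CPM in untreated WT cells. Xist, the RNA of the inactive X chromosome, was at 228 to 349 CPM in the 6 R150X libraries against 0 to 2.75 CPM in the 6 WT libraries, and the 4 Y-linked genes tested fell in R150X in both genotype comparisons. Y-linked RNA was still present in all 6 R150X libraries, with Ddx3y at 51.3 to 60.1 CPM against 83.6 to 100 CPM in WT. Each R150X library thus held both Xist and Y-linked RNA, and the reason was not tested. The effect of the allele and that of this difference in sex-linked RNA cannot be told apart here. All 8 macrophage markers, among them Adgre1, Csf1r, Cd68, Lyz2, Mertk, Fcgr1 and Cd14, were measured, and they summed to 19840 to 21170 CPM in R150X with OxLDL, 23520 to 25050 CPM in WT with OxLDL, 21260 to 22180 CPM in untreated R150X and 19480 to 19740 CPM in untreated WT. The 12 stromal markers summed to 8680 to 9158 CPM in R150X with OxLDL, 10560 to 11610 CPM in WT with OxLDL, 13760 to 15200 CPM in untreated R150X and 23730 to 23900 CPM in untreated WT. Singly, 4 stromal markers were called lower in R150X with OxLDL, 1 higher and 7 neither. Untreated, 10 were called lower in R150X, 1 higher and 1 neither. Of all genes tested, 6.92% were lower in R150X and 6.10% higher with OxLDL, and 14.8% lower and 18.1% higher untreated. The 12 neutrophil markers summed to 114 to 117 CPM in R150X with OxLDL, 236 to 251 CPM in WT with OxLDL, 373 to 393 CPM in untreated R150X and 654 to 691 CPM in untreated WT. Stromal, neutrophil and monocyte sums were thus lower in R150X than in WT and lower with OxLDL than without, the 4 monocyte markers at 13.6 to 16.0 CPM in R150X with OxLDL, 29.2 to 34.9 CPM in WT with OxLDL, 78.2 to 83.7 CPM in untreated R150X and 149 to 157 CPM in untreated WT. The 7 adipocyte markers, of which Lep was at 0 in every group, ran the other way, at 193 to 221 CPM in R150X with OxLDL, 157 to 175 CPM in WT with OxLDL, 106 to 116 CPM in untreated R150X and 67.7 to 76.5 CPM in untreated WT. This sum mostly follows Fabp4, which averaged 166.5, 163.6, 105.8 and 70.1 CPM in the same order of groups. With OxLDL, Fabp4 did not differ between genotypes (log2 fold change 0.02, adjusted p = 0.854 in edgeR). Adipoq (3.32), Plin1 (3.58) and Car3 (5.26) were higher in R150X there. Car3 passed the filter on low counts through the R150X groups alone, so that its call follows from where it is high. It had 2, 11 and 2 counts in WT with OxLDL. Defining B and T cell markers were near 0: the 4 B cell and the 4 T and NK cell markers each summed to at most 1.34 CPM in any library, and the 6 dendritic cell markers to at most 7.33 CPM. In bulk RNA, fewer cells of a type cannot be told apart from less RNA per cell, and the part of these marker shifts in the results below was not tested.

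**Figure D1:**
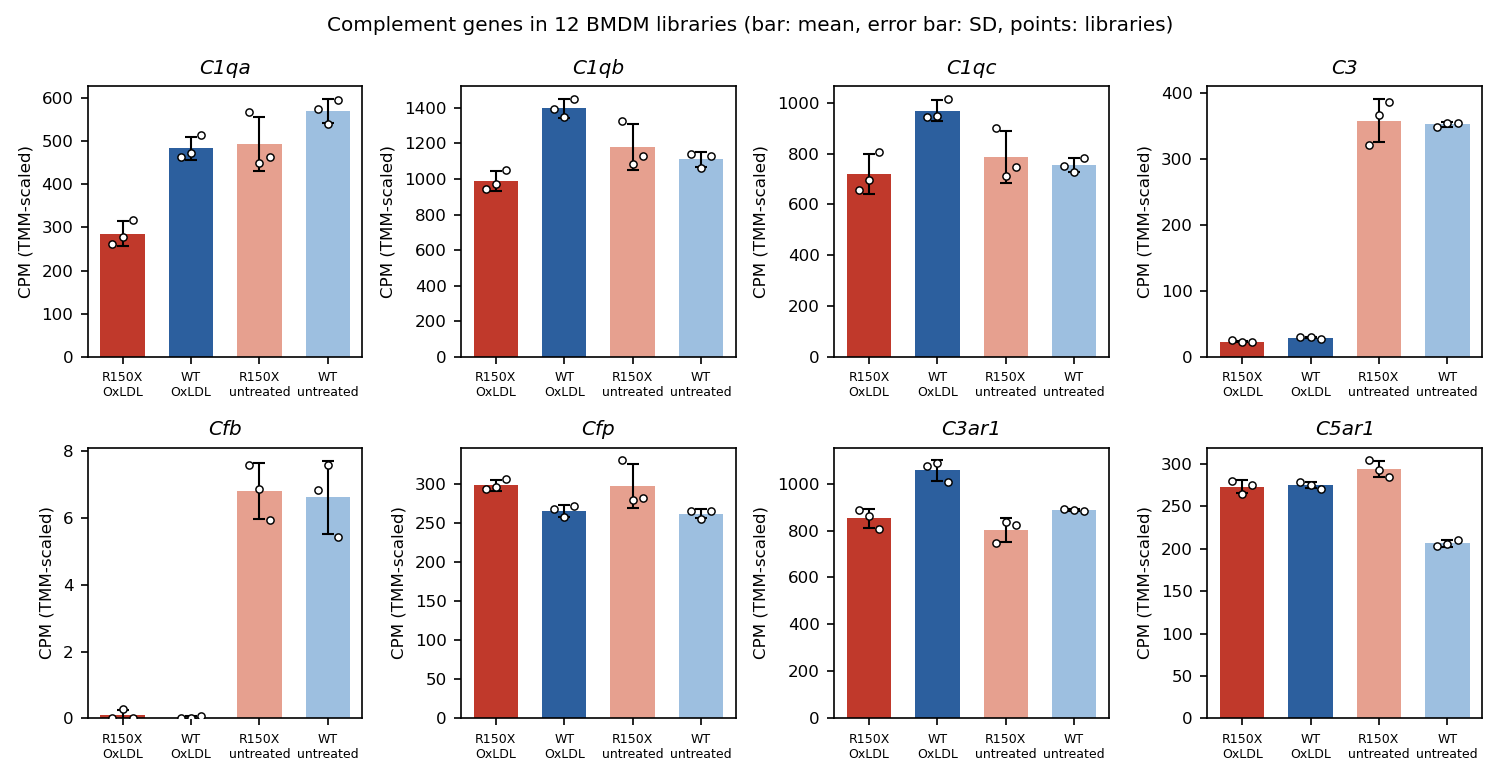
TMM-scaled CPM of the 8 complement genes in each library (points), with group means (bars) and SD (error bars), n = 3 per group. C1qa, C1qb, C1qc and C3ar1 are lower in R150X than in WT cells with OxLDL, C3 and Cfb are low in all 6 OxLDL libraries, and C5ar1 is lowest in untreated WT cells.

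C1q chains were the most abundant of these transcripts per length. The 3 genes lie within 18.7 kb on the minus strand of chromosome 4 (GRCm38, GENCODE annotation): C1qb (ENSMUSG00000036905) from 136880129 to 136886187, C1qc (ENSMUSG00000036896) from 136889804 to 136893065 and C1qa (ENSMUSG00000036887) from 136895917 to 136898803. C3 (ENSMUSG00000024164) lies on chromosome 17 from 57203970 to 57228136, Cfb (ENSMUSG00000090231) on chromosome 17 from 34856374 to 34862518, Cfp (ENSMUSG00000001128) on chromosome X from 20925454 to 20931555, C3ar1 (ENSMUSG00000040552) on chromosome 6 from 122847138 to 122856161 and C5ar1 (ENSMUSG00000049130) on chromosome 7 from 16246743 to 16259540. Every one is on the minus strand. C3ar1 shares its chromosome with Gpnmb, with 73776208 bases between them.

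Levels per kilobase of merged exons in untreated WT cells were 1021 ± 37.4 CPM per kb for C1qb, 548 ± 27.1 for C1qa, 390 ± 14.3 for C1qc, 206 ± 1.00 for C3ar1, 151 ± 3.39 for Cfp, 80.3 ± 1.54 for C5ar1 and 68.6 ± 0.686 for C3 (SD, n = 3). In this group no neighbours in the order overlapped. In untreated R150X cells C1qa (433 to 545 CPM per kb) overlapped C1qc (368 to 467), and C3ar1 (173 to 195) overlapped Cfp (161 to 190). With OxLDL, C1qc stood above C1qa in both genotypes, at 372 ± 40.8 against 275 ± 27.9 CPM per kb in R150X and at 501 ± 21.3 against 465 ± 25.7 in WT, where the library values of the pair overlapped. C3 was then last, at 4.51 ± 0.273 CPM per kb in R150X and 5.63 ± 0.216 in WT. The order of C1qa and C1qc depends on the length used: per kilobase of its longest transcript, C1qc reached 626 ± 23.0 CPM in untreated WT cells, above C1qa. No level per length is given for Cfb, because 79.5% of its exonic bases are shared with the read-through gene Gm20547, which had 0 counts in all 12 libraries. The counts do not show whether reads on the shared bases were kept, so that the Cfb values in CPM may be too low.

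The first question was how OxLDL changed these genes in R150X cells. C3 fell deeply, Cfb was nearly lost, C1qa and C1qb fell, and no gene of the 8 rose. Of the 8 genes, 4 passed an adjusted p of 0.05, against 39.0% of all genes tested, and all 4 fell, a direction in which 20.6% of all genes passed while 18.4% rose. The count of 4 is close to that background. The median log2 fold change of the 8 was -0.19 and that of all genes 0.0039. Cfb passed the filter on low counts through the untreated groups alone, so that its call follows from where it is high.

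C3, the central component, had 24.8, 22.6 and 22.2 CPM in R150X cells with OxLDL, against 322, 367 and 387 CPM in untreated R150X cells. The groups were far apart, and the fall was 15.5-fold (log2 fold change -3.95, SE 0.0695, adjusted p = 6.92e-21). Cfb, the protease of the alternative convertase, had 0, 5 and 0 counts in R150X cells with OxLDL, against 114, 122 and 108 counts in untreated R150X cells. Over the summed counts the level was 67.3-fold lower, with an exact 95% interval of 28.6 to 209 that covers counting error only (adjusted p = 1.45e-10). All 5 counts were in replicate 2. Properdin (Cfp), which stabilises the convertase, had 292.5, 295 and 305 CPM with OxLDL against 329.7, 279 and 282 CPM untreated, and the groups overlapped (log2 fold change 0.0045, SE 0.0559, adjusted p = 0.96).

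C1qa had 262, 277 and 318 CPM in R150X cells with OxLDL, against 567, 449.8 and 464 CPM in untreated R150X cells. The groups did not overlap, and C1qa fell 1.73-fold (log2 fold change -0.79, SE 0.0769, adjusted p = 3.17e-08). C1qb had 943, 971 and 1051 CPM with OxLDL, against 1327, 1083 and 1131 CPM untreated. All 3 OxLDL libraries lay below all 3 untreated ones, and C1qb fell 1.19-fold (log2 fold change -0.26, SE 0.0599, adjusted p = 0.00171). Without untreated R150X replicate 1, the highest of them, the C1qb fall was smaller (-0.16, adjusted p = 0.00377). C1qc overlapped between the groups, with 656, 694 and 807 CPM with OxLDL against 901, 710 and 749 CPM untreated (log2 fold change -0.13, SE 0.0743, adjusted p = 0.182). The C1qc value moved with single libraries. Without untreated R150X replicate 1, which stood apart from its group, it was -0.02 (adjusted p = 0.81). It passed without untreated R150X replicate 2 (log2 fold change -0.20, adjusted p = 0.0476), without R150X OxLDL replicate 3 (-0.22, adjusted p = 0.0256) and when low-count genes were kept (adjusted p = 0.0186).

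Neither anaphylatoxin receptor passed in R150X cells. C3ar1 had 886, 862 and 806 CPM with OxLDL against 745, 838 and 825 CPM untreated (log2 fold change 0.08, SE 0.0488, adjusted p = 0.184), with overlapping groups. C5ar1 had 280.2, 265 and 275 CPM with OxLDL against 304, 293 and 285 CPM untreated. The C5ar1 groups did not overlap, and the difference missed the threshold (log2 fold change -0.10, SE 0.0451, adjusted p = 0.0718) unless libraries were scaled by their totals alone (-0.13, adjusted p = 0.0289).

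In WT cells OxLDL moved 7 of the 8 genes, 4 up and 3 down, against 45.8% of all genes tested, 22.7% up and 23.1% down. C3 fell deeply and Cfb was nearly lost here too, C1qa fell slightly, and C1qb, C1qc and both receptors rose. As in R150X, the Cfb call follows from where the gene is high, because it passed the filter through the untreated groups alone. Of all genes called, 49.6% were higher with OxLDL, and 31.6% when libraries were scaled by their totals alone, a change that shifted the median of all genes by -0.11 on the log2 scale. All 7 calls had the same direction under that scaling. The median log2 fold change of the 8 genes was 0.14, and that of all genes 0.014.

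For C3 the libraries held 29.6, 29.6 and 27.7 CPM in WT cells with OxLDL, against 349, 355 and 355 CPM in untreated WT cells. This was a 12.2-fold fall with no overlap (log2 fold change -3.61, SE 0.0682, adjusted p = 3.32e-20). Cfb had 0, 0 and 1 count with OxLDL against 127, 144 and 101 counts untreated, a ratio of 0.00335 with an exact 95% interval of 8.46e-05 to 0.0188 (adjusted p = 9.38e-11). Cfp was nearly level, with 268, 257 and 272 CPM with OxLDL against 265, 255 and 265 CPM untreated (log2 fold change 0.02, SE 0.0562, adjusted p = 0.794).

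C1qb had 1391, 1348 and 1450 CPM in WT cells with OxLDL, against 1140, 1064 and 1128 CPM in untreated WT cells, and the groups did not overlap (log2 fold change 0.33, SE 0.0599, adjusted p = 0.000112). C1qc had 942, 946 and 1015 CPM with OxLDL against 751, 727 and 782 CPM untreated. It rose as C1qb did (log2 fold change 0.36, SE 0.0742, adjusted p = 0.000407). C1qa went the other way, with 464, 472 and 514 CPM with OxLDL against 575, 539 and 595 CPM untreated. The groups did not overlap (log2 fold change -0.24, SE 0.0759, adjusted p = 0.0144). The C1qa call was lost without untreated WT replicate 3 (adjusted p = 0.0646), WT OxLDL replicate 1 (adjusted p = 0.064) or WT OxLDL replicate 2 (adjusted p = 0.0538).

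Both receptors were higher in every WT library with OxLDL. C5ar1 had 279, 276 and 271 CPM with OxLDL against 203, 206 and 211 CPM untreated, a 1.33-fold rise (log2 fold change 0.42, SE 0.0454, adjusted p = 1.4e-07). C3ar1 had 1074, 1087 and 1007 CPM with OxLDL against 892, 886 and 884 CPM untreated, a 1.19-fold rise (log2 fold change 0.25, SE 0.0487, adjusted p = 0.00023). The summed macrophage markers were also higher in WT cells with OxLDL, at 23520 to 25050 CPM against 19480 to 19740 CPM untreated, a sum that follows Lyz2 (19830 ± 799 CPM with OxLDL and 13990 ± 97.7 CPM untreated). The single markers were divided, 4 rising and 3 falling, with Mertk at 0.83 and Cd68 at 0.79 and with Adgre1 at -1.71, Cd14 at -1.61 and Fcgr1 at -1.19 on the log2 scale. The part of these shifts in the rises of the receptors was not tested.

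**Figure D2:**
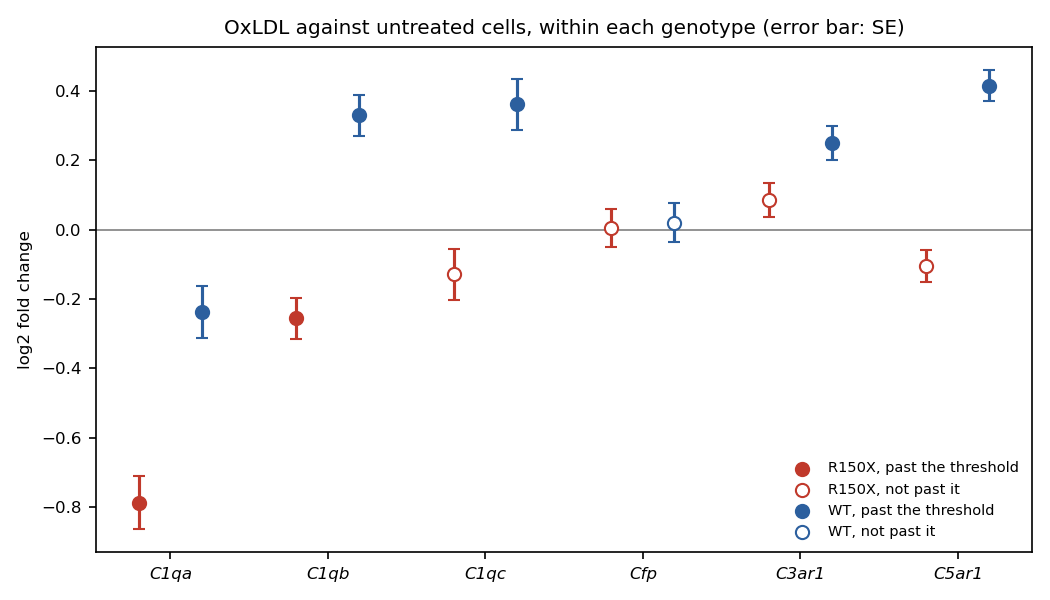
Log2 fold change of OxLDL-treated against untreated cells in R150X (red) and WT (blue), with SE, from edgeR's fit on all 12 libraries, where filled points passed an adjusted p of 0.05. C1qb, C1qc and C5ar1 lie above 0 in WT and below 0 in R150X, C1qa is below 0 in both, and C3 (-3.95 in R150X, -3.61 in WT) and Cfb are left off the axis.

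Whether the OxLDL response differed between genotypes was tested as an interaction, the response in R150X minus that in WT. It passed for 5 of the 8 genes, against 8.32% of all genes tested, and all 5 responses were lower in R150X, a direction in which 5.19% of all genes passed while 3.13% were higher. The interaction term was -0.55 for C1qa (SE 0.108, adjusted p = 0.00222), -0.59 for C1qb (SE 0.0847, adjusted p = 0.000108) and -0.49 for C1qc (SE 0.105, adjusted p = 0.00469). C5ar1 had a term of -0.52 (SE 0.0639, adjusted p = 1.75e-05), so that a gene that rose with OxLDL in WT cells did not rise in R150X cells. These 4 calls held under every alternative run. C3 had a term of -0.35 (SE 0.0946, adjusted p = 0.026), its fall being deeper in R150X.

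The C3 term missed the threshold with libraries scaled by their totals (-0.25, adjusted p = 0.114). It also missed it without untreated R150X replicate 3 (adjusted p = 0.0543), untreated WT replicate 1 (0.0595) or 2 (0.0524), R150X OxLDL replicate 2 (0.0763) or 3 (0.0717), or WT OxLDL replicate 1 (0.0713) or 2 (0.0687), each an adjusted p. C3ar1 had a term of -0.17 (SE 0.069, adjusted p = 0.156), which passed without untreated R150X replicate 1 (-0.21, adjusted p = 0.0132). Neither Cfp (-0.02, SE 0.0793, adjusted p = 0.941) nor Cfb (adjusted p = 0.483) passed. Of all genes called, 37.6% had a higher response in R150X, and 66.5% with libraries scaled by their totals. The median term was -0.42 over the 8 genes and -0.02 over all genes. Among the 8 macrophage markers, 7 had a lower response in R150X and 0 a higher one (median -0.37), and their part in these terms was not tested.

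Within the OxLDL-treated cells, R150X held less of several components than WT. All 3 C1q chains, C3 and C3ar1 were lower, and none of the 8 genes was called higher. These 5 calls compare with 13.0% of all genes tested, 6.92% lower and 6.10% higher, and the median log2 fold change of the 8 was -0.32 against 0.0020 for all genes. These values share their libraries with the OxLDL comparisons above and add no independent samples.

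C1qa differed most, with the R150X OxLDL libraries at 262 to 318 CPM against 464 to 514 CPM in the WT OxLDL libraries, which is 1.69-fold lower (log2 fold change -0.76, SE 0.0769, adjusted p = 3.78e-07). C1qb was at 943 to 1051 CPM in R150X against 1348 to 1450 CPM in WT (log2 fold change -0.50, SE 0.06, adjusted p = 4.26e-06). C1qc was at 656 to 807 CPM in R150X against 942 to 1015 CPM in WT (log2 fold change -0.43, SE 0.0743, adjusted p = 0.000348). No R150X library reached a WT library for any chain. C3 averaged 23.2 ± 1.40 CPM in R150X and 28.9 ± 1.11 CPM in WT (SD, n = 3 each), without overlap (log2 fold change -0.32, SE 0.0754, adjusted p = 0.00564). C3ar1 averaged 851.5 ± 41.2 CPM in R150X and 1056 ± 42.9 CPM in WT, also without overlap (log2 fold change -0.31, SE 0.0488, adjusted p = 0.000118). All 5 calls held under every alternative run. The macrophage marker sums were lower in R150X too, at 19840 to 21170 CPM against 23520 to 25050 CPM in WT, with 5 of 8 markers lower and 0 higher, and their part was not tested.

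The other genes did not pass between genotypes with OxLDL. C5ar1 was level, at 273 ± 7.85 CPM in R150X and 275 ± 4.02 CPM in WT (log2 fold change -0.01, SE 0.0452, adjusted p = 0.926). Cfb had 5 counts in all 3 R150X libraries together and 1 in WT, which allows no fold. Cfp had 292.5 to 305 CPM in R150X against 257 to 272 CPM in WT, without overlap, and just missed the threshold (log2 fold change 0.17, SE 0.0562, adjusted p = 0.0563). The Cfp difference passed with libraries scaled by their totals (adjusted p = 0.0288), with no filter (0.0279), in DESeq2 (0.0354), with only the 6 OxLDL libraries (0.0147), with the replicate number as a block (0.0332) and without untreated R150X replicate 1 (0.0033) or 2 (0.048). Cfp is X-linked, and the Xist difference given above runs along the same comparison.

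**Figure D3:**
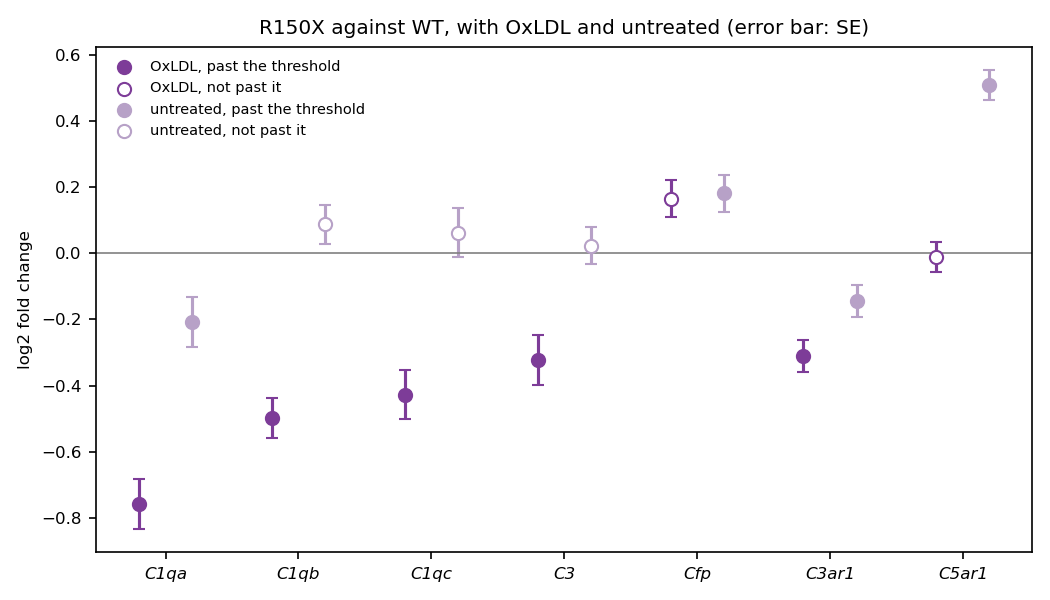
Log2 fold change of R150X against WT cells with OxLDL (dark) and untreated (light), with SE, from the same edgeR fit, where filled points passed an adjusted p of 0.05. The C1q chains, C3 and C3ar1 lie below 0 with OxLDL, C5ar1 is at 0.51 untreated and -0.01 with OxLDL, and Cfb is left out because its OxLDL counts are near 0.

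Without OxLDL the genotypes differed in another way. C5ar1 was clearly higher in untreated R150X cells, Cfp was slightly higher, and C1qa and C3ar1 were slightly lower. Those 4 of 8 genes compare with 33.0% of all genes tested, 18.1% higher and 14.8% lower, a count close to the background, and the median log2 fold change of the 8 was 0.05 against 0.010 for all genes. Of all genes called, 55.0% were higher in R150X, and 36.1% with libraries scaled by their totals.

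C5ar1 had 304, 293 and 285 CPM in untreated R150X cells, against 203, 206 and 211 CPM in untreated WT cells. Every R150X library exceeded every WT library, by 1.42-fold on average (log2 fold change 0.51, SE 0.0453, adjusted p = 3.02e-08), and the call held under every alternative run. Without untreated R150X replicate 1, which stood apart from its group, the C5ar1 log2 fold change was 0.48 (adjusted p = 6.18e-09). The untreated R150X mean of 294 ± 9.88 CPM stood above the untreated WT mean of 206 ± 3.96 CPM and also above the OxLDL means of 273 CPM in R150X and 275 CPM in WT.

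The other 3 calls were small, and each missed the threshold in some fits with a library left out. C3ar1 had 745, 838 and 825 CPM in untreated R150X cells against 892, 886 and 884 CPM in untreated WT cells (log2 fold change -0.14, SE 0.0488, adjusted p = 0.0278). The groups did not overlap, and the difference no longer passed without untreated R150X replicate 1 (-0.10, adjusted p = 0.0612) or untreated WT replicate 1 (-0.14, 0.077), 2 (-0.15, 0.0701) or 3 (-0.15, 0.0638), where the fold was nearly the same without a WT library. Cfp had 329.7, 279 and 282 CPM in untreated R150X cells against 265, 255 and 265 CPM in untreated WT cells (log2 fold change 0.18, SE 0.056, adjusted p = 0.0163), and R150X replicate 1 was the high library. Without it the Cfp value was 0.09 (adjusted p = 0.112), and it also missed the threshold without WT replicate 2 (0.16, adjusted p = 0.0759), with only the 6 untreated libraries (0.16, 0.0694) and with scaling by totals (0.11, 0.141). C1qa overlapped between the genotypes, with R150X libraries at 567, 449.8 and 464 CPM against WT libraries at 575, 539 and 595 CPM (log2 fold change -0.21, SE 0.0758, adjusted p = 0.0404). Without R150X replicate 1 the C1qa value was -0.33 (adjusted p = 0.000237). It did not pass without R150X replicate 2 (-0.14, adjusted p = 0.182) or 3 (-0.17, 0.146), WT replicate 1 (-0.20, 0.0968) or 3 (-0.18, 0.141), or R150X OxLDL replicate 2 (-0.21, 0.0516).

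C1qb and C1qc, which fell below WT with OxLDL, showed no call untreated. C1qb averaged 1181 ± 129 CPM in R150X and 1111 ± 40.8 CPM in WT (adjusted p = 0.277), and C1qc averaged 787 ± 101 CPM in R150X and 753 ± 27.7 CPM in WT (adjusted p = 0.55). C3 averaged 359 ± 33.0 CPM in R150X and 353 ± 3.53 CPM in WT (adjusted p = 0.786). Cfb averaged 6.80 ± 0.835 CPM in R150X and 6.62 ± 1.10 CPM in WT (adjusted p = 0.916). In all 4 the genotypes overlapped, and the R150X libraries of the C1q chains and C3 were spread more widely than the WT ones.

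The C1q chains did not move as 1 unit. Within a library, the ratio of C1qa to C1qb counts was 0.2885 ± 0.0127 in R150X with OxLDL, 0.346 ± 0.0108 in WT with OxLDL, 0.418 ± 0.00840 in untreated R150X and 0.513 ± 0.0127 in untreated WT (SD, n = 3). No library of any group entered the range of another, so that the share of C1qa was lower with OxLDL in each genotype and lower in R150X under each condition. The ratio of C1qc to C1qb varied less, at 0.726 ± 0.0374 in R150X with OxLDL, 0.693 ± 0.0138 in WT with OxLDL, 0.666 ± 0.0122 in untreated R150X and 0.678 ± 0.0175 in untreated WT. Over the 12 libraries, log2 levels of C1qb and C1qc had a Pearson r of 0.953, C1qa and C1qb 0.624, and C1qa and C1qc 0.463. These correlations are descriptions over libraries that share groups and depth.

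The balance of the receptors shifted as well. The ratio of C3ar1 to C5ar1 counts was 3.12 ± 0.169 in R150X with OxLDL, 3.84 ± 0.114 in WT with OxLDL, 2.74 ± 0.250 in untreated R150X and 4.30 ± 0.102 in untreated WT. WT libraries exceeded R150X libraries under both conditions, with 3.71 as the lowest WT value and 3.26 as the highest R150X value. The ratio was higher with OxLDL in R150X and lower with OxLDL in WT.

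**Figure D4:**
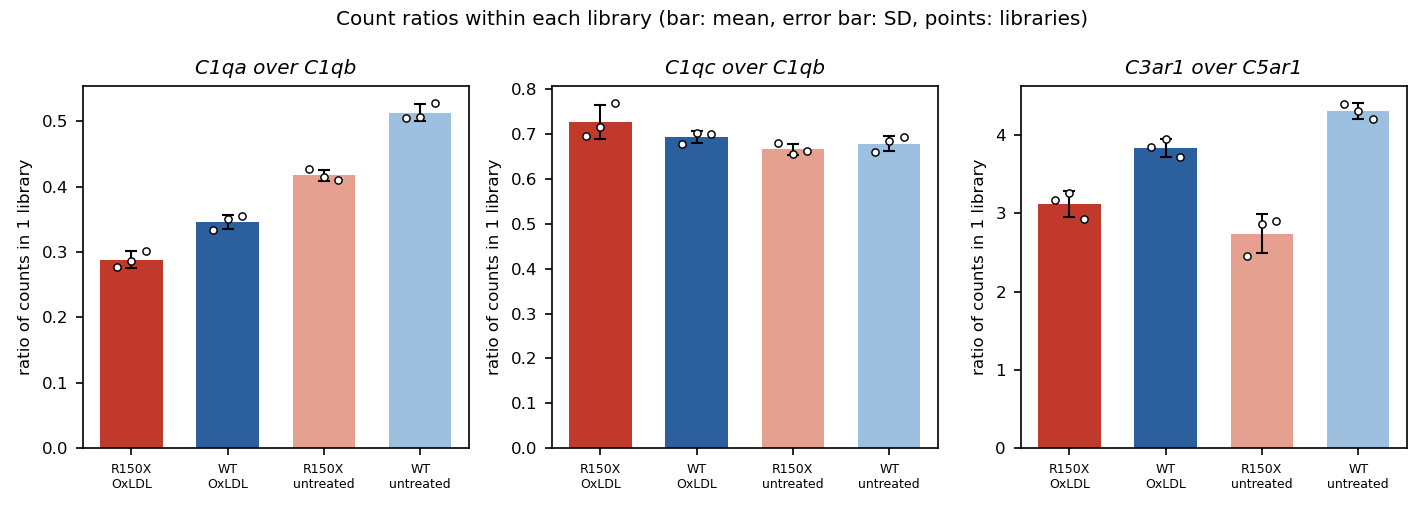
Ratio of raw counts of paired genes within each library (points), with group means (bars) and SD (error bars), n = 3 per group. The C1qa to C1qb ratio separates all 4 groups, from 0.2885 in R150X with OxLDL to 0.513 in untreated WT, while the C1qc to C1qb ratio lies between 0.655 and 0.768 in every library.

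Genes with the most similar pattern were sought among 10261 genes by Pearson r of log2 levels over the 12 libraries, given as a description. Adgre1, which encodes the macrophage surface protein F4/80, was closest to C3 (r = 0.9998). Adgre1 averaged 769 ± 18.9 CPM in R150X with OxLDL, 833 ± 15.9 CPM in WT with OxLDL, 2763 ± 126 CPM in untreated R150X and 2727 ± 41.1 CPM in untreated WT, so that its fall was shallower than that of C3. Nfkbiz (r = 0.9987) followed. Cfb was closest to Isg15 (0.992), Ppic (0.990) and Dck (0.990), and C3 and Cfb had an r of 0.977 with each other. C3, Cfb and Adgre1 were each lower in every OxLDL library than in every untreated one, a step that these r values reflect. With OxLDL, Cfb had only 5 counts in R150X and 1 in WT. For C1qa the closest were Bin2 (0.983), Lbh (0.975) and Bsg (0.956). C1qb was nearest to Il10ra (0.895), Pygl (0.893) and Slco2b1 (0.862), and C1qc to Pygl (0.930), Sertad3 (0.890) and Srsf2 (0.8725). The receptors had different neighbours, Mindy2 (0.990), Pik3ca (0.972) and Kdm7a (0.971) for C3ar1 and Tmem50a (0.975), Pgd (0.969) and Pqlc1 (0.967) for C5ar1. Cfp was nearest to Lypla2 (0.956), H2afz (0.943) and Mbd3 (0.938).

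The rest of the complement system was read from a list of 47 other genes, of which 23 passed the filter. C8a, C8b, C9 and Vtn had 0 counts in all 12 libraries, and the adipsin gene Cfd had 22 counts and Hc, which encodes C5, 4 counts in all libraries together. With OxLDL against untreated cells, 9 of the 23 rose and 8 fell in R150X (median log2 fold change 0.23), where 39.0% of all genes passed, and 7 rose and 8 fell in WT (median -0.02), where 45.8% passed. Between genotypes, 6 rose and 4 fell in R150X with OxLDL (median 0.09), where 13.0% of all genes passed, and 6 rose and 2 fell untreated (median 0.08), where 33.0% passed. The interaction passed for 4, with 1 response higher and 3 lower in R150X (median -0.03), against 8.32% of all genes.

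Among membrane regulators, Cd55, which encodes decay-accelerating factor and breaks down convertases, fell along with C3 and Cfb. It had 1.94, 1.83 and 1.34 CPM in R150X cells with OxLDL against 25.3, 27.5 and 26.1 CPM in untreated R150X cells (log2 fold change -3.94, SE 0.13, adjusted p = 3.67e-16). In WT cells it had 2.07, 1.97 and 2.15 CPM with OxLDL against 23.2, 26.5 and 22.9 CPM untreated (log2 fold change -3.55, SE 0.129, adjusted p = 1.83e-15). The other 3 membrane regulators tested, Cr1l, Cd46 and Cd59a, did not pass in either genotype. Cd55 and its paralog Cd55b could share reads, and Cd55b held 4 counts in all.

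C4b, which encodes the C4 that C1s cleaves, was higher in R150X, where the C1q chains were lower with OxLDL. It averaged 17.7 ± 1.01 CPM in R150X and 6.38 ± 0.881 CPM in WT with OxLDL (log2 fold change 1.47, SE 0.116, adjusted p = 9.37e-09), and 12.3 ± 0.989 CPM in R150X and 8.78 ± 0.662 CPM in WT untreated (log2 fold change 0.49, SE 0.111, adjusted p = 0.00213). OxLDL raised C4b in R150X (0.53, adjusted p = 0.000371) and lowered it in WT (-0.45, adjusted p = 0.0047), and the interaction was 0.98 (SE 0.162, adjusted p = 0.000404). C4a is a near-identical copy with group means of 0.805 to 1.21 CPM, so that the split of reads between the pair is uncertain. C2, the protease partner of C4, averaged 0.811 ± 0.345 CPM with OxLDL and 1.96 ± 0.223 CPM untreated in WT (log2 fold change -1.28, adjusted p = 0.00182), and 42.8% of its exonic bases are shared with Gm20547.

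The C1 proteases fell modestly with OxLDL in both genotypes. C1ra had a log2 fold change of -0.47 in R150X (adjusted p = 0.000545) and -0.43 in WT (adjusted p = 0.000992), and C1s1 -0.37 in R150X (adjusted p = 0.000494) and -0.47 in WT (adjusted p = 2.26e-05). Masp1, a lectin pathway protease gene, averaged 8.57 ± 0.102 CPM in R150X and 14.0 ± 0.952 CPM in WT untreated (log2 fold change -0.71, adjusted p = 3.68e-05). With OxLDL the Masp1 value was -0.41 (adjusted p = 0.0126), and this call was lost without R150X OxLDL replicate 3 (0.0693) or WT OxLDL replicate 3 (0.0795). Fcnb, a ficolin of neutrophils and monocytes, was lower in R150X and with OxLDL, at 0.240 ± 0.0526 CPM in R150X with OxLDL, 0.857 ± 0.359 CPM in WT with OxLDL, 1.15 ± 0.394 CPM in untreated R150X and 2.78 ± 0.574 CPM in untreated WT. Like Cfb, Fcnb passed the filter on low counts through the untreated groups alone, so that its fall with OxLDL follows from where it is high. The neutrophil and monocyte marker sums given above fall in the same order of groups, and their part in the Fcnb result was not tested. The Fcnb genotype call with OxLDL (adjusted p = 0.015) was lost without R150X OxLDL replicate 3 (0.0631) or WT OxLDL replicate 1 (0.102).

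Receptors for C3 fragments also differed between genotypes. Itgax and Itgb2, which encode the subunits of complement receptor 4, were higher in untreated R150X cells, Itgax at 963 ± 78.6 CPM in R150X and 611 ± 8.09 CPM in WT (log2 fold change 0.66, adjusted p = 2.28e-09) and Itgb2 at 1733 ± 52.4 CPM in R150X and 1265 ± 9.99 CPM in WT (0.45, adjusted p = 4.68e-09). With OxLDL these differences were 0.18 for Itgax (adjusted p = 0.0189) and 0.14 for Itgb2 (adjusted p = 0.00898). The Itgax call was lost without R150X OxLDL replicate 3 (0.0741) or WT OxLDL replicate 1 (0.0943), and the Itgb2 call without WT OxLDL replicate 2 (0.0583). Itgam, the partner of Itgb2 in complement receptor 3, averaged 233 ± 6.58 CPM in R150X and 296 ± 17.4 CPM in WT with OxLDL (log2 fold change -0.35, adjusted p = 8.71e-05). Of its exonic bases, 68.7% are shared with Gm49368, which had 64 counts in all. C5ar2, the second C5a receptor, rose with OxLDL in R150X (0.63, adjusted p = 0.000243) and in WT (0.68, adjusted p = 4.34e-05). Between genotypes, C5ar2 was lower in R150X with OxLDL (-0.36, adjusted p = 0.0354) and just missed the threshold untreated (-0.31, adjusted p = 0.0534).

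The soluble regulators Clu and Serping1 were higher in R150X under both conditions. Clu encodes clusterin, an inhibitor of the terminal complex, and averaged 16.7 ± 0.407 CPM in R150X and 10.2 ± 0.95 CPM in WT with OxLDL (log2 fold change 0.70, adjusted p = 0.000101), and 9.73 ± 0.153 CPM in R150X and 4.36 ± 0.712 CPM in WT untreated (1.16, adjusted p = 4.59e-07). Serping1, the C1 inhibitor gene, differed by 0.28 with OxLDL (adjusted p = 0.000352) and 0.21 untreated (adjusted p = 0.0023).

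**Figure D5:**
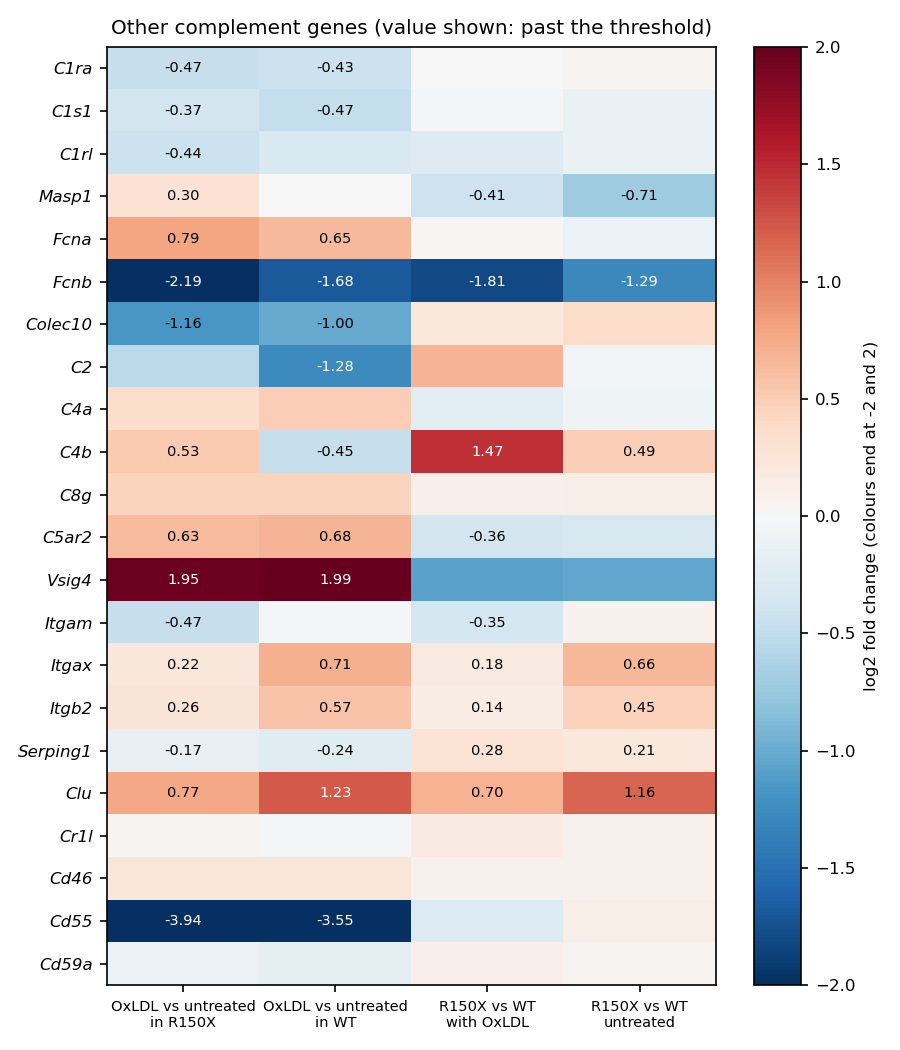
Log2 fold change (colour, ending at -2 and 2) of other complement genes tested, in 4 comparisons from the same edgeR fit, with the value printed where the adjusted p was under 0.05. Cd55 is at -3.94 in R150X and -3.55 in WT with OxLDL, C4b is higher in R150X than in WT under both conditions, and the soluble regulators Serping1 and Clu are both higher in R150X.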

How the data were processed

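Total RNA was sequenced from 12 libraries of mouse BMDMs, 3 in each of 4 groups, after isolation with an RNeasy Plus kit, per the labels' protocols. The authors deposited raw read counts per Ensembl gene, which were whole numbers with unequal library totals. Per the submitters' processing notes, which give no versions, the tools were FastQC, HISAT2, featureCounts and DESeq2 and the builds mm10 and GRCm38. The notes used here give neither the strand setting nor the annotation release, and without strand a gene and an overlapping antisense gene share reads. Symbols and coordinates came from a GENCODE annotation of GRCm38, to which 54409 of 54532 identifiers matched, and promoters from RefSeq.

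Counts were filtered with filterByExpr by group, scaled by TMM (factors 0.969 to 1.05) and fitted with 1 coefficient per group in edgeR 4.0.16 under R 4.3.3. The common biological coefficient of variation was 0.0608. The 5 comparisons were tested by quasi-likelihood in edgeR and adjusted by Benjamini-Hochberg over all 15338 genes, and every adjusted p given comes from it unless another tool is named. "Rose", "fell", "higher" and "lower" as calls mean an adjusted p under 0.05. Every SE is that of the log2 fold change, derived as its absolute value divided by the square root of the quasi-likelihood F statistic. Intervals cover counting error only.

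The 8 genes, the lists of other complement genes and of markers and the tests were chosen with earlier results of these data known. All 8 genes were named, with up to 3 other complement genes of smallest adjusted p per role and comparison and up to 3 genes of most similar pattern (mean of at least 5 CPM, prior count 2). Genes singled out beyond that rule were chosen after their values were seen, and a few named by it are not reported here. Alternatives were DESeq2's size factors, library totals alone, no filter, DESeq2 1.42.0, only the 6 libraries compared, the replicate number as a block and leaving out each library. The fit and test were also run on simulated counts, with known changes in untreated R150X alone. That run covered only the untreated genotype comparison, and not the OxLDL comparisons, the interaction or changes in genes at few counts.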

Additional observations from a re-analysis of the deposited data

Results flagged for a closer look

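By the interaction test of edgeR, the response to OxLDL differed between the genotypes for 5 of the 8 complement genes. This compares with 8.32% of all genes tested, 5.19% with a lower response in R150X and 3.13% with a higher one. Each value here is the log2 response in R150X minus that in WT. The difference was -0.55 for C1qa, -0.59 for C1qb and -0.49 for C1qc. The difference was -0.52 for C5ar1. C3 had a difference of -0.35, on top of a deep fall in both genotypes. The C3 call was lost in edgeR with libraries scaled by their totals (adjusted p = 0.114) and in several fits with a library left out. Among the other complement genes, the same test picked out C4b at 0.98, with a higher response in R150X. The integrin genes had lower responses in R150X, at -0.44 for Itgam, -0.48 for Itgax and -0.31 for Itgb2.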

How the results depend on the processing

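Of 231 values of the 8 genes under the settings other than leaving out a library, 212 kept their direction and their side of the threshold, 3 lost a call, 7 gained one and 9 changed sign. Of 480 values with a library left out, these numbers were 441, 21, 5 and 13. No call changed sign. With a library left out, the number of the 8 genes called between untreated genotypes ran from 2 to 4, against 4 with all libraries, and it was 2 without untreated R150X replicate 1 or untreated WT replicate 1, 2 or 3. The cause of these changes was not tested. Log2 fold changes near 0 turned with libraries scaled by their totals: untreated between genotypes to -0.014 for C1qc, -0.052 for C3 and -0.042 for Cfb, with OxLDL between genotypes to 0.0056 for C5ar1, and for Cfp to -0.017 with OxLDL in R150X, -0.093 with OxLDL in WT and 0.076 for the interaction. With no filter on low counts, Cfp turned to -0.0053 with OxLDL in R150X and to -0.00063 in WT. Leaving out libraries gave untreated genotype values from -0.014 to 0.15 for C1qb, -0.056 to 0.13 for C1qc, -0.034 to 0.085 for C3 and -0.090 to 0.15 for Cfb. With OxLDL between genotypes it gave -0.028 to 0.012 for C5ar1 and -1.99 to 3.88 for Cfb, for Cfp with OxLDL in R150X -0.039 to 0.084, and for the interaction -0.060 to 0.071 for Cfp and -2.03 to 3.84 for Cfb. Deviations of same-numbered libraries correlated weakly, at -0.0775 to 0.128, and only 1 of the 12 pairs was over 0.1. Of the 12, 7 matched best with their own number. These were all 3 in each genotype comparison, 1 of 3 across treatment in WT and 0 of 3 in R150X. Same-numbered libraries thus matched between the genotypes and hardly across treatment, and the reason was not tested. With the replicate number as a block, 4, 6, 4, 7 and 5 of the 8 genes were called between untreated genotypes, between genotypes with OxLDL, with OxLDL in R150X, with OxLDL in WT and in the interaction, against 4, 5, 4, 7 and 5 without it. Genes at a few counts, such as Cfb and Fcnb with OxLDL, are limited by depth.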
